A study of Mus musculus with 16 samples.

Results

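The pericentral Wnt target genes were examined in mouse liver during repeated chemical injury, with and without the gene Lcn2, which encodes the secreted protein lipocalin 2. The set was given by name and holds 10 genes, Glul, Slc1a2, Oat, Rhbg, Axin2, Lgr5, Tbx3, Cldn2, Rnf43 and Znrf3, of the 24357 genes tested. All 10 were represented on the array, and the probe used for each was well above background on all 16 arrays, so none passed the filter on dim probes through 1 group alone. RNA from whole liver was measured on 16 Agilent 1-colour arrays. The mice were male BALB/c, an inbred laboratory strain, aged 6 to 8 weeks. They were either wild type (WT) or Lcn2-/-, a line first made on a 129/Ola and C57BL/6 background and then backcrossed to BALB/c. CCl4, which hepatocytes turn into a toxic radical, was given intraperitoneally in corn oil at 0.5 ml/kg, 2 times per week for 4 weeks, and mice were killed 48 h after the final injection. Controls of each genotype received corn oil for 4 weeks. Of the arrays, 5 came from WT mice given CCl4 and 4 from their controls, and 4 came from Lcn2-/- mice given CCl4 and 3 from their controls.

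The liver lobule is organised around a central vein, and hepatocytes near it use other genes than hepatocytes near the portal tract. Endothelial cells of the central vein secrete Wnt ligands and R-spondin, which stabilise beta-catenin in the neighbouring hepatocytes, and beta-catenin with TCF factors then switches on the pericentral programme. The members fall into 3 roles. Glul, Slc1a2, Oat and Rhbg serve the handling of glutamate, glutamine and ammonia. Tbx3 encodes a transcription factor and Cldn2 a tight junction protein. Axin2, Rnf43, Znrf3 and Lgr5 act in the Wnt pathway itself, the first 3 as inhibitors and Lgr5 as an R-spondin receptor. CCl4 is activated by the pericentral enzyme Cyp2e1 and is known to injure the pericentral zone.

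Signals are given per array on the log2 scale after quantile normalization, from 1 probe per gene, and differences are between group means on that scale. Each adjusted p comes from limma, with the Benjamini-Hochberg method applied across all genes tested, and a gene counts as changed below 0.05. Counts of members and listed genes at an unadjusted p under 0.05 are also given. All genes were not counted at that threshold, so no share stands beside those counts. The genotype labels were examined first. Without CCl4, Lcn2 measured 15.16 ± 1.66 (SD, n = 4) in WT and 11.02 ± 0.533 (SD, n = 3) in Lcn2-/-. After CCl4 it measured 14.88 ± 0.958 (SD, n = 5) and 11.56 ± 0.694 (SD, n = 4), and every Lcn2-/- array lay below every WT array. The Lcn2 probe was nevertheless well above background on all 3 control and all 4 CCl4 arrays of Lcn2-/- mice, and whether it lies in the deleted part was not analysed here. Hepatocyte identity was read from 8 genes that include Alb (albumin), Ttr (transthyretin) and Hnf4a (a hepatocyte transcription factor). Alb and Serpina1c were among the brightest genes listed, at 18.93 and 18.87 in WT control. Quantile normalization gives every array the same set of values, so a change shared by the brightest genes can be hidden. All 8 were tested, and the log2 of their summed signal ranged from 21.17 to 21.28 in WT control and 21.14 to 21.34 in WT CCl4, and from 21.26 to 21.31 and 21.09 to 21.32 in the same Lcn2-/- groups. Of the 16 arrays, slide 1 held all controls and WT CCl4 1, and slide 2 held the 8 other CCl4 arrays. Treatment and slide therefore cannot be told apart in Lcn2-/-, and in WT only WT CCl4 1 separates them.

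To ask how repeated CCl4 changed the pericentral Wnt targets in WT liver, WT CCl4 was compared with WT control. Glul, Slc1a2, Oat, Tbx3 and Cldn2 fell, while none of the 4 pathway members Axin2, Rnf43, Znrf3 and Lgr5 passed the threshold. The 3 largest falls were in genes of glutamate and glutamine metabolism, of 87.2-fold in Slc1a2, 12.6-fold in Oat and 5.79-fold in Glul. Thus 5 of 10 members were lower, of which Tbx3 and Cldn2 did not pass with slide as a block, against 8.8% of all genes tested, and 0 of 10 were higher, against 8.01%. At an unadjusted p under 0.05, limma gave 6 members lower and 0 higher. The median difference of the 10 members was -0.70, against -0.03 over all genes. Whole liver was measured, so fewer pericentral hepatocytes and less RNA per pericentral hepatocyte cannot be told apart.

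**Figure D1:**
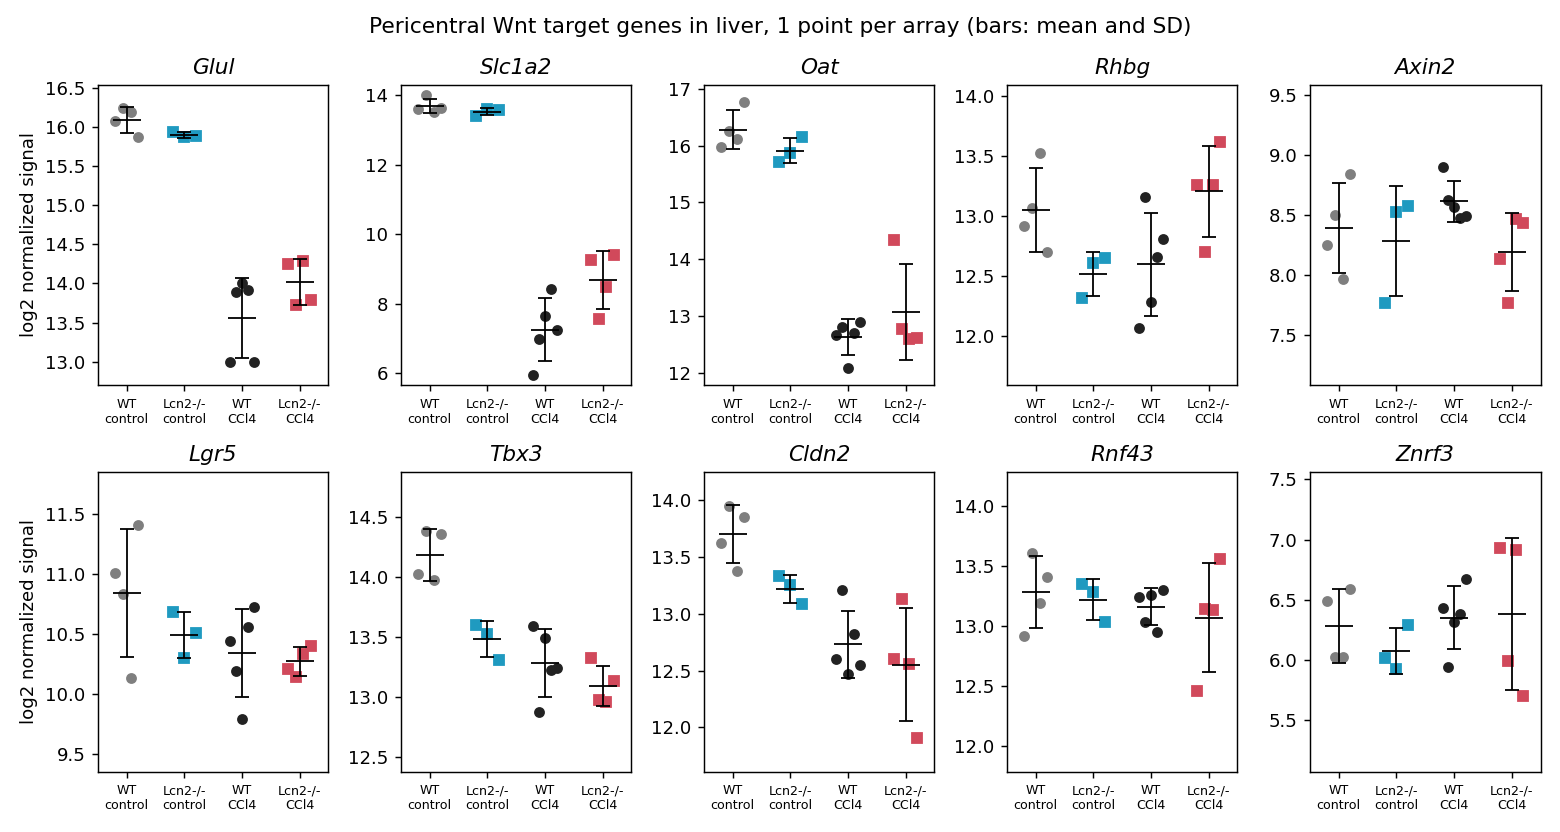
Log2 normalized signal of each member (vertical axis, 1 panel per gene) in the 4 groups (horizontal axis, controls of each genotype to the left), with 1 point per array and the mean and SD as bars. Every CCl4 array lies below every control array for Glul, Slc1a2 and Oat in each genotype, while the groups overlap for Rnf43 and Znrf3.

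Because Slc1a2, Oat and Glul fell together, the 250 bases before their annotated start are shown with those of Axin2, which did not pass the threshold. The sequences are from RefSeq on GRCm38.p6, 5′ to 3′ on the gene's own strand. Capitals mark matches to the TCF core spelled CTTTGAT or CTTTGAA. Both strands were searched, from 250 bases before to 50 after the start. On the same strand these spellings do not overlap each other.
Slc1a2, chr2:102706188-102706437, plus strand: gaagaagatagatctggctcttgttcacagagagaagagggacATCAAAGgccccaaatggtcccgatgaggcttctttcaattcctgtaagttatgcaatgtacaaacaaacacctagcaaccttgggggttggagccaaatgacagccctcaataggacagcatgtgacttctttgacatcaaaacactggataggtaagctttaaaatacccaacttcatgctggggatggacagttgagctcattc
Oat, chr7:132576399-132576648, minus strand: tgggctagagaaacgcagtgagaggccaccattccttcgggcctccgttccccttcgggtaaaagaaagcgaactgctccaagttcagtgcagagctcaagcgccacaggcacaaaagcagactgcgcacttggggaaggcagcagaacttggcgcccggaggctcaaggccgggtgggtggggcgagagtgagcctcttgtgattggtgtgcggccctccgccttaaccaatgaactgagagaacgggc
Glul, chr1:153899679-153899928, plus strand: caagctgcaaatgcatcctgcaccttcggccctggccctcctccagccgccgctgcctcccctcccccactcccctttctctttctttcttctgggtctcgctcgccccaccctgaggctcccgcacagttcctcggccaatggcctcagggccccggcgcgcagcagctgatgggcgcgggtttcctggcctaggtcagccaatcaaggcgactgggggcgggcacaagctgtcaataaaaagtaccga
Axin2, chr11:108920099-108920348, plus strand: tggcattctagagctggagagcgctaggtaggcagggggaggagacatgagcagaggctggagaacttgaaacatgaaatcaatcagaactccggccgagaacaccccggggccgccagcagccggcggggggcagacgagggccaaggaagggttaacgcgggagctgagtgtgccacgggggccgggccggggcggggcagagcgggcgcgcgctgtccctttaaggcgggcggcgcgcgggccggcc
Of the members, 6 matched the promoter table with 7 windows, 2 of them for Rnf43, and Cldn2 was the other matched gene. A match was present in 1 of the 7 windows, in Slc1a2, which reads ATCAAAG on the gene's strand with its 5′ base 207 bases before the start. Among all 32851 windows of 300 bases in the table, 8.7% held a match. A match is a run of letters and was not tested as a binding site, and windows without one say nothing about TCF factors elsewhere in these genes. Rhbg, Lgr5, Tbx3 and Znrf3 are named without a sequence.

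Slc1a2 encodes the glutamate transporter GLT-1, which takes up glutamate from the blood into pericentral hepatocytes. Its probe (chr2:102617752-102617811, mm9) measured 13.60, 14.00, 13.53 and 13.65 in WT control and 5.96, 6.98, 7.64, 8.42 and 7.24 in WT CCl4. The control arrays lay close together and every CCl4 array lay far below them. The difference for Slc1a2 was -6.45 (SE 0.425, limma adjusted p 1.01e-06), the second largest decrease in WT among the 24357 genes. Without Lcn2 the same probe measured 13.41, 13.61 and 13.57 in control and 9.25, 7.56, 8.49 and 9.40 under CCl4. Again no CCl4 array approached a control array. The decrease was 28.9-fold, or -4.86 (SE 0.484, limma adjusted p 3.12e-05), rank 6 of the decreases in Lcn2-/-. The array carries 2 further Slc1a2 probes, each well above background on every control array, on 0 of 5 WT CCl4 arrays and on 1 of 4 Lcn2-/- CCl4 arrays. In WT these were at least 30.1-fold lower (limma adjusted p 8.24e-07 over probes) and at least 2.31-fold lower (limma adjusted p 0.000133 over probes), a bound taken against the lowest signal that counted as above background. All 3 probes thus fell in WT.

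Oat encodes ornithine aminotransferase, a mitochondrial enzyme that links ornithine to glutamate and in the liver is found in the last cell layers before the central vein. Its probe (chr7:139749726-139749785, mm9) measured 15.98, 16.25, 16.12 and 16.77 in WT control and 12.67, 12.80, 12.08, 12.69 and 12.89 in WT CCl4. The WT groups did not overlap, and Oat fell by 3.65 (SE 0.316, limma adjusted p 5.99e-06). In Lcn2-/- the values were 15.72, 15.87 and 16.15 in control and 14.34, 12.76, 12.59 and 12.61 under CCl4. Lcn2-/- CCl4 1 stood apart from the other Lcn2-/- CCl4 arrays but was still below every control. Oat fell by 2.84 (SE 0.36, limma adjusted p 0.000184) in Lcn2-/-, but with slide as a block the difference was -2.79 and did not pass.

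Glul encodes glutamine synthetase, which joins ammonia to glutamate in the hepatocytes next to the central vein and is the classic marker of that layer. Its probe (chr1:155756765-155756824, mm9) measured 16.08, 16.24, 16.20 and 15.87 in WT control and 13.00, 13.89, 14.00, 13.92 and 13.00 in WT CCl4. WT CCl4 1 and WT CCl4 5 were lowest, and the groups were far apart. Glul fell by 2.53 (SE 0.221, limma adjusted p 6.31e-06). Lcn2-/- livers measured 15.94, 15.87 and 15.89 in control and 14.25, 13.73, 14.29 and 13.79 under CCl4. The groups were again separate, and Glul fell by 1.88 (SE 0.251, limma adjusted p 0.000281).

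Rhbg encodes an ammonia transporter of the Rh family on the hepatocyte membrane. Unlike the other 3 members of ammonia and glutamine handling, it did not pass the threshold in either genotype. Its probe (chr3:88047265-88047324, mm9) measured 12.92, 13.07, 13.53 and 12.70 in WT control and 12.07, 13.16, 12.29, 12.66 and 12.81 in WT CCl4. These groups overlapped, with a difference of -0.45 (95% interval -0.96 to 0.05, limma adjusted p 0.21). Lcn2-/- livers measured 12.32, 12.61 and 12.65 in control and 13.26, 12.70, 13.26 and 13.62 under CCl4. Here every CCl4 array lay above every control array, as in 12.1% of all genes, with a difference of 0.68 (95% interval 0.11 to 1.26, limma adjusted p 0.114). With slide as a block this difference was 0.02 (limma adjusted p 0.991), and that in WT was -0.99 (limma adjusted p 0.142). The difference between genotypes in this response was 1.14 (SE 0.356, 95% interval 0.38 to 1.90, unadjusted limma p 0.00638, adjusted p 1).

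Tbx3 encodes a T-box transcription factor and Cldn2 encodes claudin-2, a pore-forming tight junction protein of pericentral hepatocytes. Tbx3 (chr5:120134511-120134570, mm9) measured 14.02, 14.38, 13.97 and 14.36 in WT control and 13.59, 12.87, 13.49, 13.22 and 13.24 in WT CCl4. The WT groups did not overlap, and Tbx3 fell by 0.90 (SE 0.151, limma adjusted p 0.00094), a 1.87-fold decrease, but with slide as a block the difference was -0.59 and did not pass (limma adjusted p 0.18). Lcn2-/- livers measured 13.60, 13.52 and 13.31 in control and 13.32, 12.97, 12.96 and 13.13 under CCl4. The groups met at 13.31 and 13.32, with a difference of -0.38 (95% interval -0.75 to -0.01, limma adjusted p 0.168). Already without CCl4, every Lcn2-/- array lay below every WT array for Tbx3. Cldn2 (chrX:136345244-136345303, mm9) measured 13.62, 13.95, 13.38 and 13.85 in WT control and 12.60, 13.21, 12.47, 12.82 and 12.55 in WT CCl4. Again the WT groups did not overlap, and Cldn2 fell by 0.97 (SE 0.215, limma adjusted p 0.00669), a 1.96-fold decrease, and with slide as a block it was -1.10 and did not pass (limma adjusted p 0.108). The Lcn2-/- arrays measured 13.33, 13.25 and 13.09 in control and 12.60, 13.13, 12.56 and 11.91 under CCl4. Lcn2-/- CCl4 2 overlapped the controls, and the difference was -0.67 (95% interval -1.20 to -0.15, limma adjusted p 0.0904), which passed without that array (-0.86, limma adjusted p 0.0259) but not with slide as a block (-0.84, limma adjusted p 0.389). A second Cldn2 probe fell by 1.15 in WT (limma adjusted p 0.0232 over probes) and gave -0.94 in Lcn2-/- (limma adjusted p 0.111 over probes). For neither gene was the response shown to differ between genotypes, with differences between the responses of 0.52 (95% interval 0.02 to 1.01, unadjusted limma p 0.0408, adjusted p 1) for Tbx3 and 0.30 (95% interval -0.40 to 0.99, limma adjusted p 1) for Cldn2.

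Axin2, a scaffold of the complex that degrades beta-catenin, is induced by Wnt signalling in many tissues and feeds back on it. Its probe (chr11:108812034-108812093, mm9) measured 8.25, 8.50, 7.96 and 8.84 in WT control and 8.90, 8.62, 8.56, 8.47 and 8.49 in WT CCl4. The groups overlapped, and the difference was 0.22 (95% interval -0.23 to 0.67, limma adjusted p 0.523). The Lcn2-/- arrays measured 7.76, 8.52 and 8.57 in control and 8.13, 7.76, 8.46 and 8.43 under CCl4. The difference was -0.09 (95% interval -0.61 to 0.43, limma adjusted p 0.851). Neither interval includes a decrease as large as those of Tbx3 and Cldn2 in WT, the smallest that passed. A second Axin2 probe was well above background on only 3 arrays, all WT CCl4.

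Lgr5 encodes a receptor for R-spondins and in the liver marks pericentral hepatocytes. Its probe (chr10:114887403-114887462, mm9) measured 11.01, 10.83, 10.13 and 11.41 in WT control and 10.44, 10.19, 9.79, 10.56 and 10.72 in WT CCl4. The CCl4 arrays were within the range of the controls except WT CCl4 3, and the difference was -0.50 (95% interval -0.99 to -0.01, limma adjusted p 0.152). WT control 3 was the lowest control, and without it the difference was -0.74 and passed (limma adjusted p 0.0164). In Lcn2-/- the values were 10.68, 10.30 and 10.51 in control and 10.21, 10.14, 10.33 and 10.40 under CCl4, with a difference of -0.22 (95% interval -0.78 to 0.33, limma adjusted p 0.628). Rnf43 and Znrf3 encode membrane ubiquitin ligases that remove Wnt receptors from the cell surface and are themselves held back by R-spondin and its Lgr receptors. Rnf43 (chr11:87548958-87549017, mm9) measured 12.92, 13.61, 13.19 and 13.41 in WT control and 13.24, 13.03, 13.26, 12.95 and 13.30 in WT CCl4. All WT CCl4 arrays lay within the range of the WT controls, with a difference of -0.12 (95% interval -0.54 to 0.29, limma adjusted p 0.709). In Lcn2-/- Rnf43 measured 13.35, 13.28 and 13.03 in control and 12.46, 13.14, 13.13 and 13.56 under CCl4, with a difference of -0.15 (95% interval -0.62 to 0.32, limma adjusted p 0.715). The Lcn2-/- CCl4 arrays spanned the controls on both sides. Znrf3 (chr11:5180918-5180977, mm9) measured 6.49, 6.02, 6.02 and 6.59 in WT control and 6.43, 5.94, 6.31, 6.38 and 6.67 in WT CCl4. The difference was 0.07 (95% interval -0.47 to 0.60, limma adjusted p 0.894). The Lcn2-/- arrays measured 6.01, 5.92 and 6.29 in control and 6.93, 5.99, 6.91 and 5.70 under CCl4, where the CCl4 arrays fell into a high and a low pair. The Lcn2-/- difference was 0.31 (95% interval -0.30 to 0.92, limma adjusted p 0.521).

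**Figure D2:**
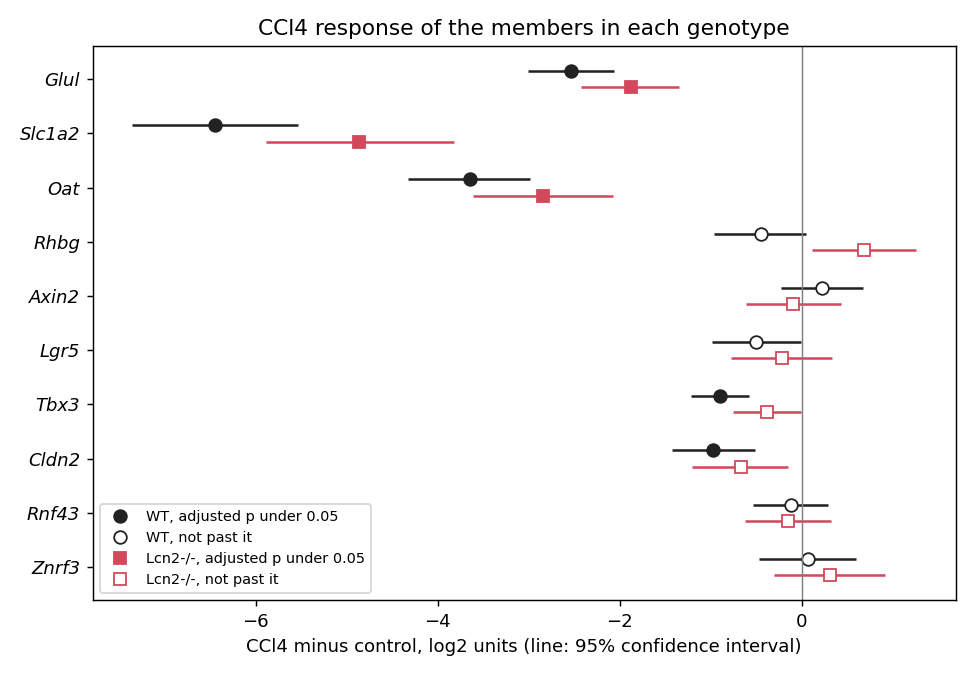
CCl4 minus control in log2 units (horizontal axis) for each member in WT (circles) and Lcn2-/- (squares), with 95% confidence intervals as lines and filled symbols for an adjusted p under 0.05. Slc1a2, Oat and Glul are filled in each genotype, Tbx3 and Cldn2 in WT, and the intervals of Axin2, Rnf43 and Znrf3 include 0.

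To ask whether the same members responded without Lcn2, the response was measured in Lcn2-/- in the same model. Glul, Slc1a2 and Oat fell, of which Oat did not pass with slide as a block. Thus 3 of 10 members were lower, against 5.61% of all genes, and 0 of 10 were higher, against 6.57%. At an unadjusted p under 0.05, limma gave 5 members lower and 1 higher, which was Rhbg. The median difference of the members was -0.30, against -0.02 over all genes. Glul, Slc1a2 and Oat were lower in each genotype, as were 902 of all genes tested. Every CCl4 array lay below every control array in 5 members in WT, against 9.42% of all genes, and in 3 members in Lcn2-/-, against 12.7%.

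These responses were set against slide where the arrays allowed it. On slide 1, WT CCl4 1 minus the WT control mean was -3.10 for Glul, -7.74 for Slc1a2, -3.61 for Oat, -1.10 for Cldn2 and -0.59 for Tbx3. Each was below 0, as in the comparison of all arrays. With slide as a block, the model gave these same WT differences, since WT CCl4 1 was the only CCl4 array on slide 1. The block is thus no separate check, and its p-values take their spread from all groups. In that fit Glul, Slc1a2 and Oat passed in WT, whereas Tbx3 and Cldn2 did not, as given above. In Lcn2-/- the block rests on the WT arrays, and the difference of Oat, called in the comparison without the block, was -2.79 in place of -2.84, with a limma adjusted p of 0.0537.

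To ask how Lcn2 loss changed the injured liver, Lcn2-/- CCl4 was compared with WT CCl4. The genotypes occupied different rows of a slide except for WT CCl4 1, so genotype is close to inseparable from row. A row block therefore rests on WT CCl4 1, which also lay on the other slide than the rest of WT CCl4. Its values are thus no separate check. With slide as a block, this comparison rests on the arrays of slide 2. None of the 10 members passed the threshold with limma, against 0.636% of all genes. At an unadjusted p under 0.05, where that share does not apply, there were 2, Slc1a2 and Rhbg, each higher in Lcn2-/-. Slc1a2 measured 7.25 ± 0.903 (n = 5) in WT CCl4 and 8.68 ± 0.844 (n = 4) in Lcn2-/- CCl4. The difference was 1.43 (95% interval 0.52 to 2.34, unadjusted limma p 0.00463, adjusted p 0.174), and the groups overlapped. When all probes of a gene were averaged in place of the brightest, its adjusted p was 0.0469, although the 2 further probes were well above background on 1 of the 9 CCl4 arrays. The Slc1a2 difference was 1.1 with slide as a block and 2.72 with row as a block. Slc1a2 and the deleted Lcn2 lie on the same chromosome. Rhbg differed by 0.61 (95% interval 0.11 to 1.11, limma adjusted p 0.287), with 12.60 ± 0.431 in WT CCl4 and 13.21 ± 0.379 in Lcn2-/- CCl4. The Rhbg difference was 0.48 with slide as a block and 1.14 with row as a block. Glul (0.46, 95% interval -0.02 to 0.93) and Oat (0.45, 95% interval -0.23 to 1.13) had positive differences that did not pass. The Glul difference was 0.31 with slide as a block and 1.02 with row as a block. That of Oat was 0.46 with slide as a block, and 0.03 (limma adjusted p 0.982) without Lcn2-/- CCl4 1. For Axin2 every Lcn2-/- CCl4 array lay below every WT CCl4 array, at most 8.46 against at least 8.47 and as in 3.26% of all genes, with a difference of -0.41 (95% interval -0.87 to 0.04, limma adjusted p 0.412). The other 5 members had differences from -0.19 (Tbx3) to 0.04 (Znrf3).

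In control livers, Lcn2-/- was compared with WT to ask whether the members differed before injury. None of the 10 members passed with limma, against 0.53% of all genes, and Tbx3 alone had an unadjusted p under 0.05. Tbx3 measured 14.18 ± 0.217 (n = 4) in WT control and 13.48 ± 0.147 (n = 3) in Lcn2-/- control, a difference of -0.70 (95% interval -1.07 to -0.33, unadjusted limma p 0.00108, adjusted p 0.108). Cldn2 (-0.48, 95% interval -1.0 to 0.04) and Rhbg (-0.53, 95% interval -1.10 to 0.04) did not pass either. For Tbx3, Cldn2 and Rhbg every Lcn2-/- control array lay below every WT control array, as in 5.42% of all genes, so for 3 of the 10 members. The differences of the 10 members ran from -0.70 to -0.06, with a median of -0.28 against -0.01 over all genes. A block for row of the slide again rests on WT CCl4 1. With it, the difference turned to 0.51 for Glul, 1.45 for Slc1a2 and 0.14 for Rhbg. It stayed below 0 for the other members, and none passed. The difference between the CCl4 responses of the genotypes was then tested as an interaction. It passed for none of the 10 members with limma, against 0.0534% of all genes. At an unadjusted p under 0.05, where that share does not apply, there were 3 members, Slc1a2, Rhbg and Tbx3. For Slc1a2 it was 1.59 (95% interval 0.21 to 2.97, unadjusted limma p 0.0268, adjusted p 1), a smaller decrease in Lcn2-/-. For Glul it was 0.65 (95% interval -0.07 to 1.37) and for Oat 0.81 (95% interval -0.21 to 1.84), which was 0.39 without Lcn2-/- CCl4 1.

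Other genes of the lobule were read from lists to place the members, and each list's counts stand against 8.8% of all genes lower and 8.01% higher in WT, and 5.61% lower and 6.57% higher in Lcn2-/-. Of 27 other pericentral genes tested, 7 were lower and 2 higher in WT, and 3 lower and 1 higher in Lcn2-/-, with medians of -0.14 and -0.06. The 3 lower calls in Lcn2-/- include Slc22a3, which was not well above background on any Lcn2-/- array, control or CCl4, so that this call rests on signal at background. In WT, Slc22a3, an organic cation transporter, was at least 3.25-fold lower (limma adjusted p 0.000204, not well above background in any WT CCl4 array), Slc13a3, a dicarboxylate transporter, fell by 1.45 (limma adjusted p 0.0152) and Nr1i3, the nuclear receptor CAR, fell by 1.33 (limma adjusted p 0.00119). Csad, an enzyme of taurine synthesis, rose by 1.53 (limma adjusted p 0.00134) and Por, the electron donor of P450 enzymes, by 0.83 (limma adjusted p 0.0408). Some pericentral P450 enzymes were among the lower genes in WT. Cyp2c54 fell by 1.0 (limma adjusted p 0.00396), Cyp2c50 by 0.99 (limma adjusted p 0.00232) and Cyp2c29 by 0.65 (limma adjusted p 0.0146), which are given here after their values were seen. The other 3 enzymes described did not pass. Cyp2e1, which activates CCl4, differed by -0.13 (95% interval -0.33 to 0.07, limma adjusted p 0.375), Cyp1a2, a caffeine-metabolising P450, by -0.78 (95% interval -1.59 to 0.03, limma adjusted p 0.179) and Cyp7a1, the rate-limiting enzyme of bile acid synthesis, by 0.49 (95% interval -0.36 to 1.34, limma adjusted p 0.436).

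Among 28 periportal genes tested, 1 was lower and 7 were higher in WT, and 1 lower and 6 higher in Lcn2-/-, with medians of 0.20 and 0.36. Sds, a serine dehydratase of gluconeogenesis, rose by 1.42 (limma adjusted p 0.00137), G6pc, the last enzyme of glucose release, by 1.13 (limma adjusted p 0.0407), Cdh1, E-cadherin, by 0.94 (limma adjusted p 0.000639) and Gls2, liver glutaminase, by 0.76 (limma adjusted p 0.00138) in WT. In Lcn2-/-, Cdh1 rose by 0.75 (limma adjusted p 0.0101), Hsd17b13, a lipid droplet enzyme, by 0.79 (limma adjusted p 0.000753) and Uroc1, of histidine breakdown, by 0.75 (limma adjusted p 0.0178). Glutaminase makes the ammonia and glutamate that glutamine synthetase, the product of Glul, consumes downstream along the lobule, and these genes moved in opposite directions in each genotype. Sult5a1, a sulfotransferase, went the other way from the rest of its list and fell by 3.95 (limma adjusted p 0.000228) in WT and by 2.03 (limma adjusted p 0.0493) in Lcn2-/-. Cyp2f2, a periportal P450, differed by 0.04 (limma adjusted p 0.846) in WT, and Hal and Hpd were on the array but not tested because the image software marked their spots as outliers. Of 6 midlobular genes, 1 was higher and 1 lower in WT, where Hamp2, a hepcidin, rose by 3.1 (limma adjusted p 0.00034) and Mup3, a major urinary protein, fell by 0.33 (limma adjusted p 0.0428), and 2 were higher in Lcn2-/-, Hamp2 by 3.90 (limma adjusted p 0.000274) and Igfbp1, an IGF-binding protein, by 2.47 (limma adjusted p 0.0285).

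**Figure D3:**
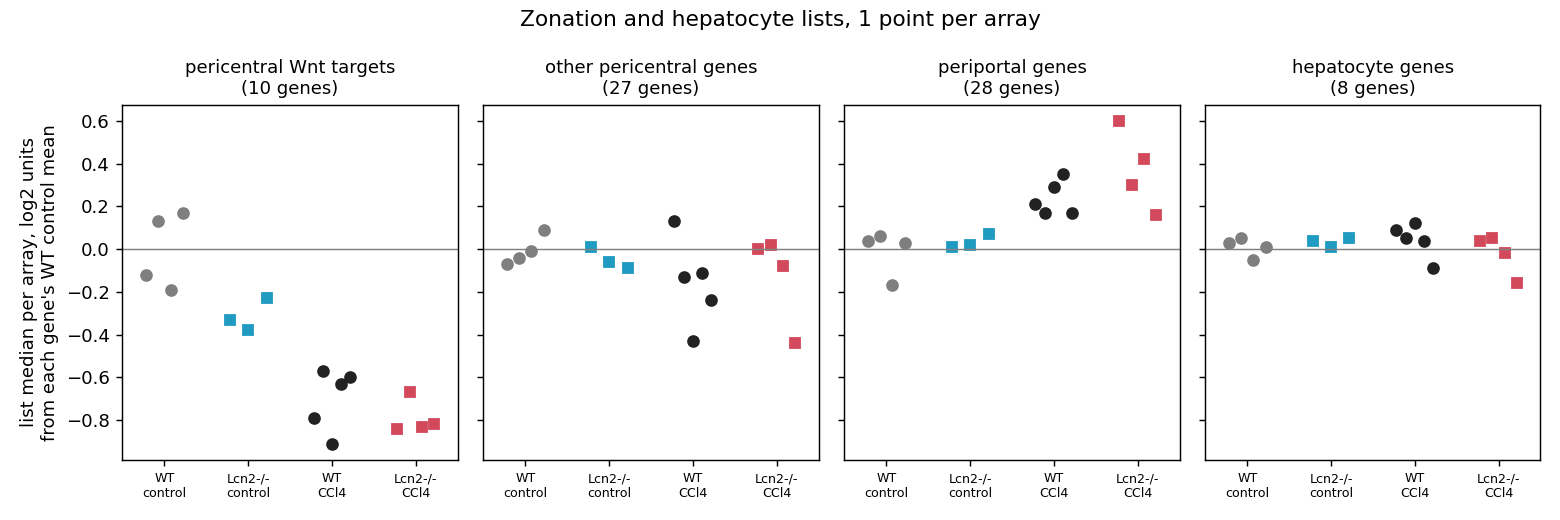
Median over the genes of a list, per array, in log2 units from each gene's WT control mean (vertical axis), for 4 lists by group (horizontal axis). For the 10 members the WT CCl4 arrays lie between -0.91 and -0.57 and the Lcn2-/- CCl4 arrays between -0.84 and -0.67, below every control array, whereas the 8 hepatocyte genes stay near 0.

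The hepatocyte genes were the reference for the members within the same RNA, with the limit from normalization given above. Of the 8, limma called 0 in either genotype, and 0 in either genotype had an unadjusted p under 0.05 in the CCl4 responses, with differences from -0.15 to 0.11 in WT and from -0.28 to 0.38 in Lcn2-/-. Alb differed by 0.05, Ttr by 0.10 and Hnf4a by 0.05 in WT. Markers of other liver cells were read in the same way. Of 7 stellate cell and myofibroblast genes 6 were higher in each genotype, among them Col1a1 (collagen I), Lum (lumican) and Pdgfrb (a PDGF receptor), by 3.49, 2.78 and 1.71 in WT (limma adjusted p 0.000133, 5e-06 and 2.72e-05), and the log2 of their summed signal ranged from 13.21 to 14.81 in WT control, 16.13 to 16.97 in WT CCl4, 12.88 to 13.28 in Lcn2-/- control and 15.44 to 16.21 in Lcn2-/- CCl4. Of 6 macrophage genes 1 was higher and 2 lower in WT, Cd68 (a lysosomal protein) by 2.12 (limma adjusted p 0.00673), and the Kupffer cell genes Timd4, which fell by 1.29 (limma adjusted p 0.0291), and Clec4f, which fell by 1.03 (limma adjusted p 0.00533), while in Lcn2-/- Cd68 rose by 1.84 (limma adjusted p 0.0378), and Timd4 (-0.99) and Clec4f (-0.54) were lower at an unadjusted p under 0.05 only. The median of the 6 macrophage genes was 1.07 log2 units above the WT control mean in control 3 of each genotype, against -0.84 to -0.21 in the other controls and -0.61 to 0.36 over all CCl4 arrays. Of 4 neutrophil genes 2 were higher in WT, S100a8 by 2.31 (limma adjusted p 0.034) and S100a9 by 1.96 (limma adjusted p 0.0463), and 0 were called in Lcn2-/-, also at an unadjusted p under 0.05. The median of the 4 neutrophil genes, in log2 units from the WT control mean, was 1.85 in WT control 3 and 2.14 in Lcn2-/- control 3, against -1.10 to -0.23 in the other controls, 1.64 to 2.81 in WT CCl4 and 0.94 to 1.56 in Lcn2-/- CCl4. In each genotype 1 control thus stood within or above the range of the CCl4 arrays, and the missing call in Lcn2-/- does not show that these genes stayed level. Of 3 lymphocyte genes tested 2 were lower in WT, Cd3e by 0.88 (limma adjusted p 0.029) and Nkg7 by 0.40 (limma adjusted p 0.0495), and 0 were called in Lcn2-/-, again also at an unadjusted p under 0.05. Of 6 cholangiocyte genes Spp1 (osteopontin), which other cells also express, rose by 1.67 (limma adjusted p 0.0193) in WT and by 2.10 (limma adjusted p 0.0147) in Lcn2-/-. Of 5 sinusoidal genes Lyve1 rose by 1.52 (limma adjusted p 0.028) and Stab2 fell by 0.43 (limma adjusted p 0.0301) in WT, and Lyve1 rose by 1.92 (limma adjusted p 0.0211) in Lcn2-/-. The part of these cell types in the falls of Glul, Slc1a2 and Oat was not tested.

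The Wnt pathway was followed from ligand to target. The ligands made by central vein endothelium did not pass the threshold in WT. Wnt2 measured 6.52 ± 0.442 in WT control and 6.62 ± 0.195 in WT CCl4, a difference of 0.10 (limma adjusted p 0.796), Wnt9b measured 7.63 ± 0.232 and 8.0 ± 0.276, a difference of 0.37 (limma adjusted p 0.126), and the R-spondin Rspo3 measured 11.24 ± 0.224 and 11.48 ± 0.194, a difference of 0.24 (limma adjusted p 0.33). In Lcn2-/- their differences were 0.42, 0.43 and 0.31 (limma adjusted p 0.289, 0.137 and 0.287). Of the 5 central vein endothelium genes, which include these 3, Thbd (thrombomodulin) rose, by 0.85 (limma adjusted p 0.00316) in WT and by 1.16 (limma adjusted p 0.00145) in Lcn2-/-. Across 15 Wnt, R-spondin and secretion genes tested of 25, 4 were higher and 1 lower in WT, and 3 were higher and 0 lower in Lcn2-/-, where 2 had an unadjusted p under 0.05 downwards. Wnt6 rose by 2.36 (limma adjusted p 0.00977, with 1 of 4 WT control arrays above background), Wnt4 by 1.99 (limma adjusted p 0.00015) and Wls, the carrier that brings Wnt proteins to the cell surface, by 1.03 (limma adjusted p 0.000146), while Wnt1 fell by 0.67 (limma adjusted p 0.0414). Of the other 10, each was well above background on at most 1 array.

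Of 15 receptors tested, 2 were higher and 1 lower in WT, and 2 were higher in Lcn2-/-, counts close to the shares of all genes (8.01% and 8.8% in WT, 6.57% higher in Lcn2-/-). The Frizzled receptors Fzd2 and Fzd1 rose by 1.75 and 0.69 in WT (limma adjusted p 7.81e-05 and 0.000467), Fzd1 rose by 0.68 (limma adjusted p 0.00223) and Fzd2 was at least 3.73-fold higher in Lcn2-/-, and the co-receptor Lrp5 fell by 0.49 (limma adjusted p 0.0458) in WT. Lgr4, the R-spondin receptor related to Lgr5, differed by -1.24 in WT (95% interval -2.96 to 0.47, limma adjusted p 0.319). Of 11 Wnt inhibitors tested, which include the intracellular Nkd2, 4 were higher and 2 lower in WT, and 3 higher and 3 lower in Lcn2-/-. Sfrp5, Sfrp2 and Frzb, of the secreted Frizzled-related family that binds Wnt proteins, and Dkk3, of the Dickkopf family, were higher. Sfrp5 measured 4.55 ± 0.975 in WT control, with 1 of 4 arrays above background, and 9.55 ± 0.73 in WT CCl4, a fitted rise of 4.99 (limma adjusted p 0.00054) whose size is uncertain for that reason. In Lcn2-/- the rise of Sfrp5 was at least 3.38-fold (limma adjusted p 0.0146, above background on 3 of 4 CCl4 arrays). Sfrp2 was at least 2.92-fold higher in WT (limma adjusted p 0.0338), Dkk3 rose by 2.29 (limma adjusted p 4.26e-06) and Frzb by 1.96 (limma adjusted p 0.000145) in WT, and by 1.98 and 2.11 (limma adjusted p 5.88e-05 and 0.000388) in Lcn2-/-. Wif1 and Dkk4 were lower, by 2.51 and 2.50 (limma adjusted p 0.0125 and 0.000473) in WT, where Wif1 was well above background on only 2 of 5 CCl4 arrays, and in Lcn2-/- Wif1 was at least 4.9-fold lower (limma adjusted p 0.00179), Dkk4 fell by 2.60 (limma adjusted p 0.00154) and Nkd2, an intracellular inhibitor, fell by 0.57 (limma adjusted p 0.0164).

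Of 27 genes of the beta-catenin core tested, 2 were higher and 2 lower in WT, and 1 higher and 0 lower in Lcn2-/-, where 3 had an unadjusted p under 0.05 downwards. In WT that is close to the share of all genes, 8.01% higher and 8.8% lower. Ctnnbip1, an inhibitor of beta-catenin and TCF, rose by 0.75 (limma adjusted p 0.00354) in WT and by 0.85 (limma adjusted p 0.005) in Lcn2-/-, Dvl2 (Dishevelled) rose by 0.44 (limma adjusted p 0.0176), and Bcl9l, a beta-catenin co-activator, and Apc2 fell by 0.66 and 0.47 (limma adjusted p 0.0475 and 0.0329) in WT. Ctnnb1, which encodes beta-catenin, differed by 0.08 (limma adjusted p 0.611), Apc by -0.57 (limma adjusted p 0.0547) and the factor Tcf7l2 by -0.69 (limma adjusted p 0.062) in WT. Of 14 general Wnt targets tested outside the members, Sp5, a zinc finger factor, fell by 0.81 (limma adjusted p 0.00227) and Ccnd1, cyclin D1, rose by 1.38 (limma adjusted p 0.0243) in WT, and 0 passed in Lcn2-/-, with 1 lower and 3 higher at an unadjusted p under 0.05. The members' median of -0.70 in WT thus stood beside medians of 0.24 for the ligands, -0.19 for the receptors, -0.31 for the inhibitors, 0.01 for the core and 0.43 for the general targets.

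The genes whose pattern over the 16 arrays was nearest to 3 members were looked up by the root mean square difference in log2 signal after each gene was centred on its mean. For Glul the nearest genes by name were Slc22a4, a carnitine-related transporter, at 0.408, LOC100047212 at 0.409, Med1, a Mediator subunit, at 0.436 and Lhpp, a phosphatase, at 0.448, and the fifth was a probe for an unnamed transcript. These named genes had WT differences from -3.00 (Lhpp) to -1.89 (Med1), near the -2.53 of Glul. The measure was not scaled to a gene's spread, so its size cannot be compared between members. For Slc1a2 the nearest were Susd4, a complement inhibitor, at 0.763 and Irx1, an Iroquois homeobox factor, at 0.949. Their WT differences were -6.66 and -5.86. Gm2350 at 1.13 and 2 probes for unnamed transcripts were also among the nearest. For Axin2 they were Smad7, an inhibitor of TGF-beta signalling, at 0.227, Zfp131 at 0.229, and Ddx3x and Myef2 at 0.244, with WT differences from -0.09 to 0.24, and a probe for an unnamed transcript. All these genes were read from the same 16 arrays as the members.

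**Figure D4:**
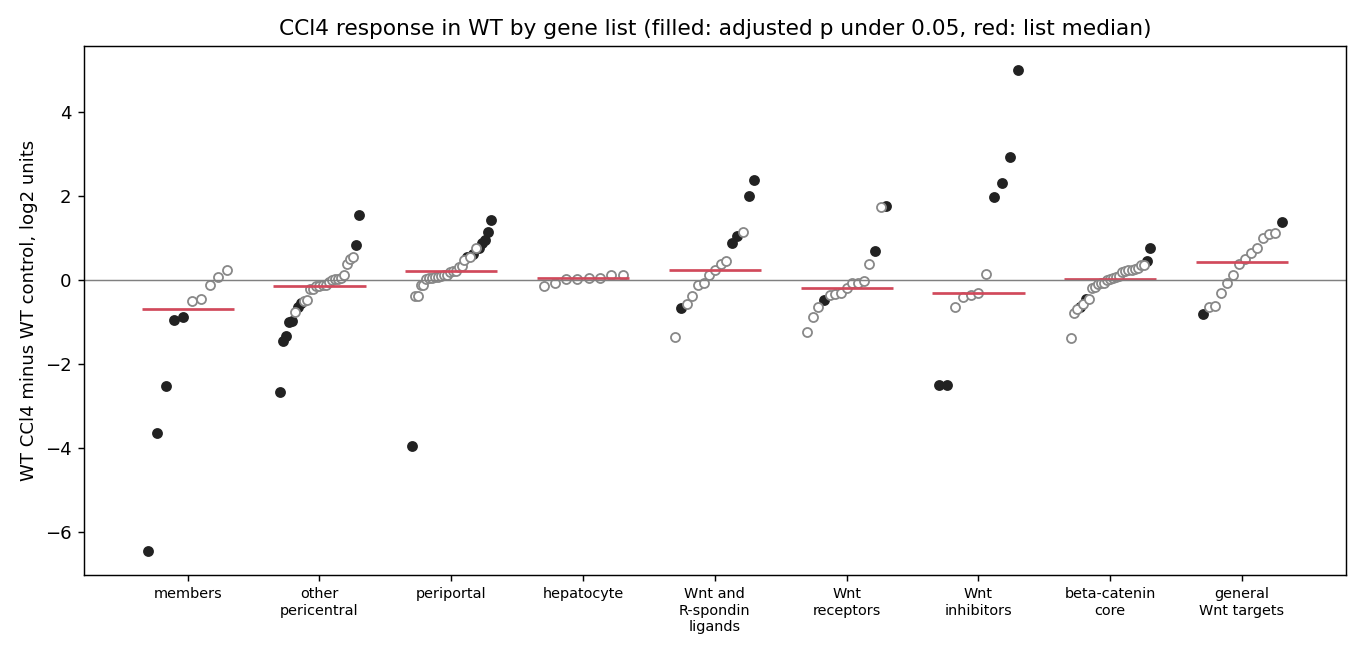
WT CCl4 minus WT control in log2 units (vertical axis) for every gene tested of 9 lists (horizontal axis), with 1 point per gene, filled where the adjusted p was under 0.05, and the list median as a red line. Slc1a2, Oat and Glul are the 3 lowest members at -6.45, -3.65 and -2.53, and the inhibitor list spans fitted values from -2.51 (Wif1) to 4.99 (Sfrp5), each with 1 group mostly at background.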

How the data were processed

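Liver RNA of 16 samples was labelled with Cy3 and hybridised to 1-colour arrays. Per the file headers, each deposited file holds the spot intensity values of 1 array from Feature Extraction 10.7.3.1, with background subtracted within the array and no normalization between arrays. A second deposited file holds the authors' own log2 values, normalized, and served as an alternative.

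Of 62976 spots per array, 59305 were gene spots. Their log2 processed signal was quantile normalized, as the study's methods name, and spots marked as outliers were left out. Spots of a probe were averaged, probes were kept that stood well above background on 3 or more arrays, and the brightest probe stood for a gene, which gave 24357 genes. Of these 61% were named through RefSeq (GRCm38.p6, names and promoters only) and the rest by the files. Probe positions are on mm9, and which part of a transcript a probe matches was not analysed here. The share of spots well above background was 51.6% to 60.9%, and 0 were saturated. The number of arrays limits the precision.

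Tests were made in limma (version 3.58.1, R version 4.3.3), with 1 model over the 4 groups, 5 contrasts and Benjamini-Hochberg adjustment within each, and the model was tested on simulated data. Groups came from the sample titles. The titles do not say that replicates are separate animals, so p-values measure the spread between these samples. In controls, same-numbered WT and Lcn2-/- arrays deviated together (r of 0.233, 0.368 and 0.552 across genes), and they also share the array column on the slide. The main model held no block for replicate number, which entered only as an alternative. For same-numbered arrays of the other pairs of groups compared, r ran from -0.221 to 0.252.

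All 10 members are named. From each other list the text names up to 3 genes lower and 3 higher with the largest change in either genotype's response, and 18 genes chosen for their role. The members and lists were chosen with earlier results of these data known. Where a probe was above background in 1 group only, the fold is a bound against the lowest signal above background. The 27 alternatives covered scaling, background, filter, probe choice, blocks, array weights and left-out arrays.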

Additional observations from a re-analysis of the deposited data

Results flagged for a closer look

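Among 30 sets of values (each member in each group of 4 or 5 arrays), 2 held an array far from the others by Dixon's test at the 95% level, where chance gives about 1 in 20. Oat in WT CCl4 3 measured 12.08, while the other WT CCl4 arrays lay between 12.67 and 12.89. Oat in Lcn2-/- CCl4 1 measured 14.34, while the other Lcn2-/- CCl4 arrays lay between 12.59 and 12.76. Without WT CCl4 3, Oat fell by 3.52 in WT (limma adjusted p 2.58e-05). Without Lcn2-/- CCl4 1, Oat fell by 3.26 in Lcn2-/- (limma adjusted p 2.87e-06), the difference between genotypes under CCl4 was 0.03 in place of 0.45, and the difference between the responses was 0.39 in place of 0.81. These 2 differences did not pass the threshold with or without that array.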

How the results depend on the processing

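The CCl4 responses of Glul and Slc1a2 in each genotype, and of Oat in WT, kept their direction and passed under all 27 alternatives, from -3.10 to -2.34, -7.74 to -5.16 and -3.78 to -3.49 in WT. The number of members changed in WT was 5 and was 3 with slide as a block, where Tbx3 (-0.59) and Cldn2 (-1.10) did not pass, and 6 with Lgr5 added under array weights (-0.60, limma adjusted p 0.0322), without WT control 3 and without both control 3 arrays. In Lcn2-/- it was 3 and was 6 with array weights (Rhbg, Tbx3 and Cldn2 added), 4 under 75th percentile scaling (Cldn2, -0.75, limma adjusted p 0.0391) and without Lcn2-/- CCl4 2, and 2 with slide as a block. Between genotypes under CCl4 it was 0 and was 1 (Slc1a2) with a gene's probes averaged. In controls it was 0 and was 1 (Tbx3, limma adjusted p 0.0203) with array weights. The cause was not tested in any of these. Over all genes, the count in WT was 4094, against 1302 with slide as a block, 7054 with array weights, and 2498 and 2581 without WT control 1 or 2. In Lcn2-/- it was 2968, against 425 with slide as a block, 6954 with array weights, and 1695 and 1683 without Lcn2-/- control 1 or 2. Under 75th percentile scaling the median gene differed by -0.16 in WT and by -0.14 in Lcn2-/-.

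With replicate number as a block, no call of a member changed. That block turned small differences to 0.04 (Slc1a2 in controls), 0.03 (Lgr5 between genotypes under CCl4) and -0.01 (Znrf3 in WT). The other reversed signs were all in differences that did not pass. With row of the slide as a block, the control difference became 0.51 for Glul, 1.45 for Slc1a2 and 0.14 for Rhbg, and the difference under CCl4 -0.05 for Znrf3. That row block rests on WT CCl4 1, as given above. With slide as a block, the Lcn2-/- response became 0.27 for Axin2 and 0.00 for Tbx3. The Lcn2-/- response of Axin2 became 0.01 in the authors' table, 0.41 with probes averaged, 0.25 with array weights and 0.05 without both control 3 arrays. With array weights, the interaction became 0.06 for Axin2, the control difference 0.12 for Rnf43 and the WT response -0.04 for Znrf3. Without both control 3 arrays these were 0.01 for Rnf43 and -0.02 for Znrf3. Scaling to the 75th percentile gave 0.02 for the interaction of Rnf43 and -0.13 for the WT response of Znrf3.

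Leaving out 1 array turned the sign of 10 differences. The ranges were -0.35 to 0.06 for the Lcn2-/- response of Axin2, -0.31 to 0.06 for that of Rnf43 and -0.02 to 0.17 for the WT response of Znrf3. Under CCl4 between genotypes they were -0.21 to 0.03 for Lgr5, -0.38 to 0.03 for Cldn2, -0.25 to 0.12 for Rnf43 and -0.15 to 0.26 for Znrf3. In controls they were -0.25 to 0.16 for Axin2 and -0.18 to 0.05 for Rnf43, and for the interaction of Rnf43 -0.18 to 0.18. Groups of 3 to 5 arrays limit what can be called.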

Other observations

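Beside the members, the periportal list held the only zonation gene that passed between genotypes under CCl4. Sult5a1, a sulfotransferase, measured 9.42 ± 1.01 (n = 5) in WT CCl4 and 12.27 ± 0.759 (n = 4) in Lcn2-/- CCl4, a difference of 2.85 (SE 0.552, limma adjusted p 0.0334), with every Lcn2-/- CCl4 array above every WT CCl4 array. Its control values were 13.37 ± 0.957 in WT and 14.30 ± 0.664 in Lcn2-/-, and the difference between the responses was 1.92 (limma adjusted p 1). Of the 27 other pericentral genes 0 passed in this comparison with limma, while 1 was lower and 7 were higher at an unadjusted p under 0.05. The share of all genes at that unadjusted threshold was not counted. Notum, a secreted Wnt deacylase and Wnt target, went from 14.09 ± 0.518 to 13.44 ± 0.163 with CCl4 in WT and from 14.07 ± 0.387 to 13.98 ± 0.435 in Lcn2-/-, and was chosen after its values were seen. These differences, -0.64 (limma adjusted p 0.0895) and -0.09 (limma adjusted p 0.873), did not pass.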
